A study of Mus musculus with 8 samples.

Results

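The dystrophin-glycoprotein complex was examined in knee joints of mice through 8 of its genes, Dmd, Utrn, Dag1, Sgca, Sgcb, Sgcd, Sgce and Sspn, which were chosen by name. All 8 were present among the 20681 rows of the deposited table and all 8 passed the filter on low values, as did 14949 genes in total. RNA was measured by poly-A sequencing in 8 knee joint libraries, 4 labelled control and 4 labelled knockout. According to the design text, all 8 joints were taken from mice with Acan-Cre and loxP-flanked Loxl2 alleles (Loxl2 fl/fl), the control joints were vehicle-treated, and the other joints were conditional knockouts of LOXL2, a collagen-crosslinking enzyme. The library names add wt or ko for LOXL2 and the letters DMM, which usually stand for a surgical destabilisation of the medial meniscus and which all 8 libraries carry. What the knockout mice received in place of vehicle, and the age, sex and strain background of the mice, are not given in the sources used here. The Cre is driven by the promoter of Acan, the aggrecan gene of cartilage cells, so skeletal muscle is not the tissue that this driver targets.

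Dystrophin is a long rod that links the actin cytoskeleton of a muscle fibre to a group of proteins in its membrane. In that group dystroglycan binds laminin outside the cell and dystrophin inside it, and the sarcoglycans and sarcospan form a side arm that steadies the link. Utrophin is a relative of dystrophin that is found in many cell types and, in mature fibres, mainly at nerve and tendon junctions, and epsilon-sarcoglycan is a relative of alpha-sarcoglycan that is also made outside striated muscle. In bulk RNA of a joint, fewer cells of a type and less RNA per cell cannot be told apart.

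The genes lie on separate chromosomes or far from each other on the mouse build mm10. Dmd spans chromosome X from 82948870 to 85206141 on the plus strand, Utrn chromosome 10 from 12382188 to 12869365 on the minus strand, and Dag1 chromosome 9 from 108204634 to 108263958 on the minus strand. The sarcoglycan genes are Sgca (chromosome 11, 94962791 to 94976327, minus strand), Sgcb (chromosome 5, 73632749 to 73647790, minus strand), Sgcd (chromosome 11, 46896253 to 47988969, minus strand) and Sgce (chromosome 6, 4674350 to 4747207, minus strand). Sspn, the sarcospan gene, occupies 145931641 to 145965223 of chromosome 6 (plus strand). Other annotated genes overlap 6 of these 8 loci, and 5 of them have one on the opposite strand: Tsga8 at Dmd, Gm7525 at Utrn, Hils1 at Sgca, Gm12176 at Sgcd and Sspnos at Sspn. Whether the counting used strand is not given in the sources used here, so reads of such partners could not be told apart from those of the member.

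Upstream sequence is shown for Sgca, the member that differed most, for Dag1, which fell with it, and for the 2 starts of Dmd in the RefSeq table of build GRCm38.p6, since 1 count covers both starts of that gene. Each run is the 250 bases before the start, 5′ to 3′ on the gene's strand. Capitals mark every match, on either strand, to an E-box (CANNTG), a GC box (GGGCGG), a TEAD MCAT element (CATTCC), a MEF2 element or a CArG box.
Sgca, chr11:94976328-94976577, minus strand: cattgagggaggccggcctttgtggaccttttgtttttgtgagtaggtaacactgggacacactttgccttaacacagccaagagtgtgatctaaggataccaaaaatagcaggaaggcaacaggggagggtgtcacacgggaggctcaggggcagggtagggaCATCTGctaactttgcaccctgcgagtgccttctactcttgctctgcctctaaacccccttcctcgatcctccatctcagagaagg
Dag1, chr9:108263959-108264208, minus strand: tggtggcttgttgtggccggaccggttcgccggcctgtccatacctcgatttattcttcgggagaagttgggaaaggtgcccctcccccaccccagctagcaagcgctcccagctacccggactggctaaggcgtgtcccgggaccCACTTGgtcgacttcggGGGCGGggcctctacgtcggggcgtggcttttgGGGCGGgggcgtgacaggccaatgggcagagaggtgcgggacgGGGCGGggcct
Dmd, start of the whole gene, chrX:82948620-82948869, plus strand: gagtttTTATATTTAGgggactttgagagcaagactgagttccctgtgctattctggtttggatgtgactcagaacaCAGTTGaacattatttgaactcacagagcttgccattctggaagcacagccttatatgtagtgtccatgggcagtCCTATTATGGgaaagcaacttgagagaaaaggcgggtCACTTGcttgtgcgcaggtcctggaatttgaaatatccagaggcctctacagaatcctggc
Dmd, internal start, chrX:85048045-85048294, plus strand: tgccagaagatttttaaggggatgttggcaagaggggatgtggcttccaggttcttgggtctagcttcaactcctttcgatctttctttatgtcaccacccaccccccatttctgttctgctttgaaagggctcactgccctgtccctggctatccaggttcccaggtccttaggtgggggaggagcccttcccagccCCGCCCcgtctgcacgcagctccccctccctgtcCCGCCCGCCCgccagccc
The window of Sgca held 1 E-box and no match to the other motifs. The window of Dag1 held 3 GC boxes and 1 E-box and was 67.6% G and C. The first window of Dmd held 2 E-boxes, 1 MEF2 element and 1 CArG box and was 45.2% G and C, whereas the internal one, 2099425 bases further on, held 3 GC boxes, some of them overlapping, and none of the other motifs. Of 32851 windows of the same length in that table, 66.2% held an E-box, 32.7% a GC box, 12.6% a TEAD MCAT element, 2.9% a MEF2 element and 1.5% a CArG box. In the GENCODE annotation 2 transcripts of Dmd start within 50 bases of the first start and 3 within 50 bases of the internal one. A gene-level count therefore sums the full-length dystrophin of muscle with shorter products of the same gene.

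The libraries held 13991000 to 17411617 reads assigned to genes. The targeted gene went against its label: Loxl2 was at 519 ± 411 normalised reads under the control label and at 1209.9 ± 329 under the knockout label (mean ± SD, n = 4 each), a log2 difference of 1.44 ± 0.40 (SE, limma adjusted p = 0.0294). Control replicate 3, at 1135, lay above 2 of the libraries labelled knockout, so the groups overlapped (exact permutation p = 0.0857). The groups are therefore called by their labels. Of the cartilage genes, Col2a1 had 146 to 2721 normalised reads and Acan, whose promoter drives the Cre, 52.3 to 544, so both were detected in every library. Prg4, which cartilage surface and synovial lining cells both make, had 10288 to 42836. The 18 genes of a skeletal muscle list took 15.95% of the summed values on average in the control group and 11.26% in the other group, so that muscle was a large part of what was sequenced. The labels do not say outright that each library came from a separate mouse, so p-values measure only the spread between these samples, which may be technical.

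Across the complex the members moved in both directions. Sgca, Dag1 and Sgcb fell, Sgce rose, and Dmd, Utrn, Sgcd and Sspn did not pass the test (limma, Benjamini-Hochberg adjusted p under 0.05 over all genes tested). Holding the skeletal muscle list level between libraries moved the median of all genes by 0.67. On that scale the differences of Dag1, Sgcb, Dmd and Sspn changed sign, to 0.24, 0.30, 0.41 and 0.45. That of Sgca shrank to -0.17 and lost its call (limma adjusted p = 0.179). Thus 3 of 8 members were called lower, where 11.6% of all tested genes were, and 1 was called higher, where again 11.6% were. In either direction 4 of 8 were called, beside 23.2% of all tested genes. The groups did not overlap for the same 4 members, beside 25.1% of all tested genes. The median log2 difference of the 8 members was -0.24, and that of all tested genes was 0.00.

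**Figure D1:**
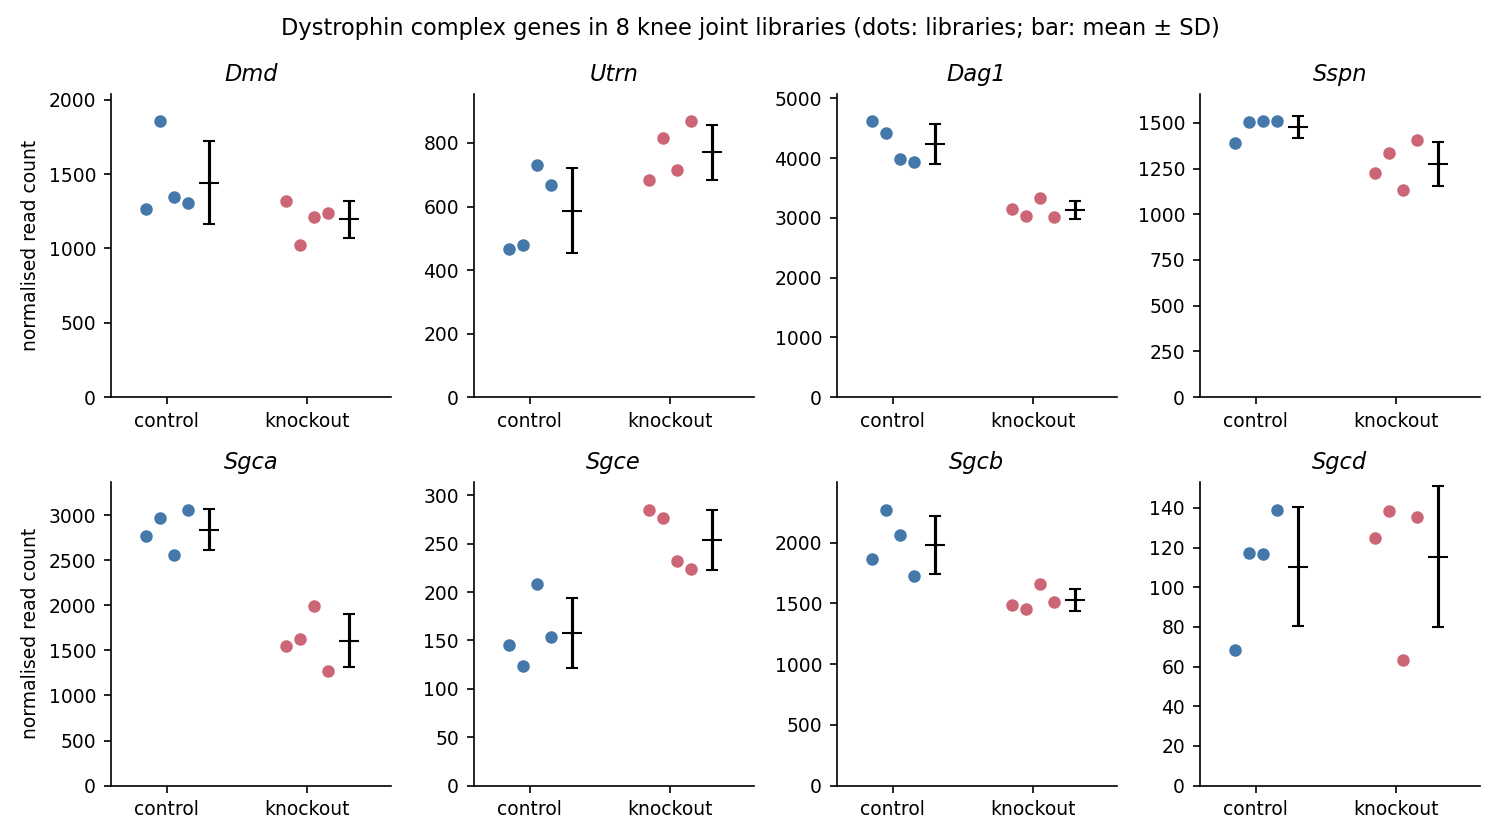
Normalised read count (vertical axis, from 0) of the 8 genes in each of the 4 control and 4 knockout libraries, with the mean ± SD of each group beside the dots. The groups are apart for Dag1, Sgca, Sgcb and Sgce and overlap for Dmd, Utrn, Sspn and Sgcd. Dag1, Sgcb, Dmd and Sspn change direction if the skeletal muscle list is held level.

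The sarcoglycans form a tight subcomplex in the fibre membrane. Sgca encodes alpha-sarcoglycan, which is largely limited to striated muscle and is the gene of a limb-girdle muscular dystrophy. Its normalised read counts, listed here and for the other genes in the order of replicates 1 to 4, were 2772, 2965, 2553 and 3060.5 under the control label and 1547, 1630.1, 1987 and 1268 under the knockout label. Every control library lay above every knockout library. It fell by 43.9%, a log2 difference of -0.83 ± 0.13 (SE, limma adjusted p = 0.00468), and the exact permutation test gave the smallest p that 4 against 4 libraries allow (p = 0.0286). Only 2.41% of all tested genes had a lower difference. With any 1 of the 8 libraries removed Sgca was still called, at a difference between -0.94 and -0.73. With the skeletal muscle list held level it was not called (-0.17, limma adjusted p = 0.179).

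Sgcb encodes beta-sarcoglycan, a core subunit that is found beyond muscle as well. It had 1865, 2272, 2061 and 1724 normalised reads in the control libraries and 1485, 1454, 1657 and 1508 in the knockout libraries. The groups were apart, but by a narrow margin, since control replicate 4 and knockout replicate 3 differed little. Its log2 difference was -0.37 ± 0.10 (SE). It fell by 22.6% (limma adjusted p = 0.0246). The call was lost without control replicate 2 (limma adjusted p = 0.0672) or knockout replicate 1 (0.0577), 2 (0.0615) or 4 (0.0630). It was also lost under quantile normalisation (-0.22, limma adjusted p = 0.123) and when scaling left out the genes of 3 lists (muscle, erythroid, neutrophil) together with the 50 genes of highest level (-0.22, limma adjusted p = 0.115), and under the replicate block (limma adjusted p = 0.0580). With the skeletal muscle list held level the sign changed and Sgcb was called higher (0.30, limma adjusted p = 0.0424). On that scale the median of all tested genes was 0.67 and 10058 genes were called higher, so Sgcb lay below the median.

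Sgcd encodes delta-sarcoglycan, the partner of beta-sarcoglycan in the core. It was the member with the fewest reads, 68.1, 117, 117 and 139 in the control libraries and 125, 139, 63.1 and 136 in the knockout libraries. The groups overlapped almost fully, with 1 low library in each, control replicate 1 and knockout replicate 3. A log2 difference of 0.05 ± 0.30 (SE) was not distinguishable from 0 at this depth (limma adjusted p = 0.924), and its sign turned under quantile normalisation and when 1 of 4 libraries was removed (control replicate 1 or knockout replicate 1, 2 or 4).

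Sgce encodes epsilon-sarcoglycan, an imprinted gene linked to myoclonus-dystonia. It had 145, 123, 208 and 153 normalised reads in the control libraries and 285, 276, 232 and 224 in the knockout libraries. All 4 knockout libraries lay above all control libraries, and control replicate 3 was the nearest to them. The rise was 63.1%, a log2 difference of 0.71 ± 0.17 (SE, limma adjusted p = 0.0179; exact permutation p = 0.0286). It was called with any 1 of the 8 libraries removed, at differences of 0.60 to 0.85, and not under the replicate block (limma adjusted p = 0.0522).

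Dystroglycan, the product of Dag1, is cut into an outer part that binds laminin and a membrane part that binds dystrophin. Dag1 had 4618, 4417, 3977 and 3928 normalised reads in the control libraries and 3152, 3031, 3328 and 3014 in the knockout libraries. The groups were well apart and the knockout libraries lay close together (SD 145, against 337 in the control group). The log2 difference was -0.43 ± 0.08 (SE). It fell by 25.9% (limma adjusted p = 0.00861; exact permutation p = 0.0286). Under quantile normalisation it was -0.19 and was not called (limma adjusted p = 0.124), and with the muscle list held level it was 0.24.

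Dmd had 1268, 1856, 1344 and 1305 normalised reads in the control libraries and 1317, 1023, 1208 and 1239 in the knockout libraries. The groups overlapped, because control replicate 2 stood high and the other 3 control libraries lay near knockout replicate 1. The log2 difference was -0.26 ± 0.13 (SE, limma adjusted p = 0.183), and without control replicate 2 it was -0.13 (limma adjusted p = 0.413).

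Utrn had 467, 479, 732 and 667 normalised reads in the control libraries and 682, 816, 713 and 869 in the knockout libraries. Control replicate 3 lay above 2 knockout libraries, while control replicates 1 and 2 lay well below all of them. The log2 difference of 0.41 ± 0.16 (SE) did not pass the test (limma adjusted p = 0.0843). Without control replicate 3 it was 0.53 and was called (limma adjusted p = 0.0328), and it was also called under the scaling without muscle and top genes (0.56, limma adjusted p = 0.0334).

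Sspn encodes sarcospan, a small membrane protein with 4 transmembrane passes that sits beside the sarcoglycans. It had 1389, 1502, 1509 and 1509 normalised reads in the control libraries and 1227, 1336, 1135 and 1406 in the knockout libraries. The groups overlapped in 1 pair of libraries, control replicate 1 and knockout replicate 4. The log2 difference was -0.22 ± 0.09 (SE, limma adjusted p = 0.0950).

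Levels were set against each other per length, as normalised reads per kilobase of the merged annotated exons. In the control group Sgca stood first with 1635 ± 129 reads per kilobase, followed by Dag1 with 666 ± 53.0, Sgcb with 489 ± 58.9 and Sspn with 296 ± 11.8 (mean ± SD, n = 4). Dmd followed with 60.6 ± 11.6, Utrn with 34.3 ± 7.79, Sgce with 14.8 ± 3.42 and Sgcd with 13.4 ± 3.63. Neighbours in that order did not overlap between libraries, apart from Sgce and Sgcd at its end. In the knockout group the order was the same, but there Dmd (50.3 ± 5.24) and Utrn (45.0 ± 5.09) overlapped, while Sgce (24.0 ± 2.93) and Sgcd (13.98 ± 4.29) no longer did. Exons used in only a few transcripts count fully in such a length, which lowers the value of genes with many transcript forms such as Dmd.

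**Figure D2:**
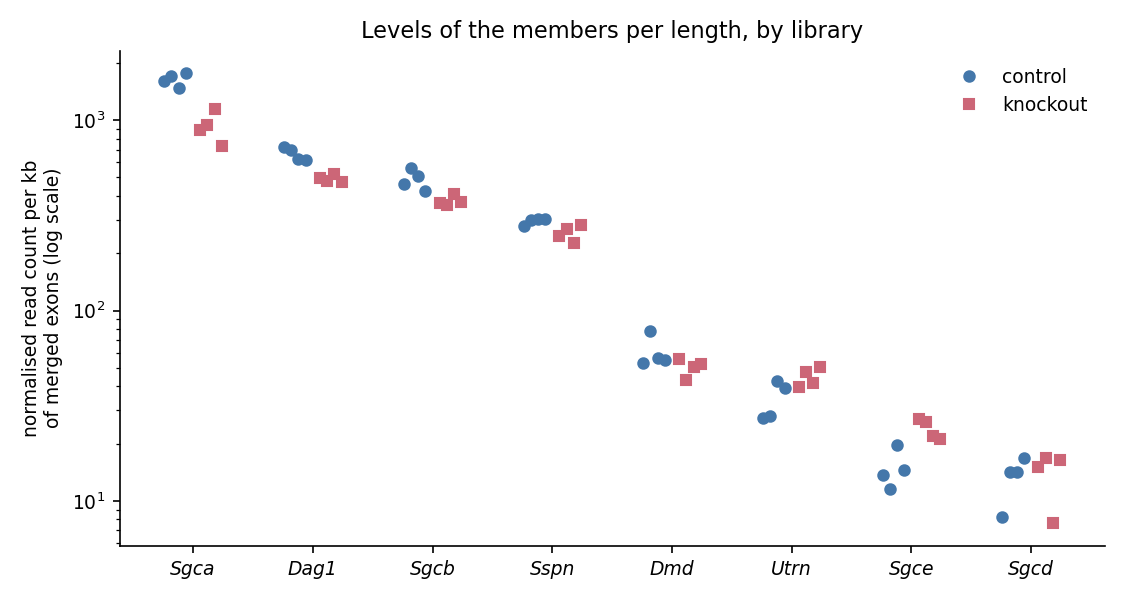
Normalised read count per kilobase of merged exons (vertical log axis) for the 8 members, ordered by their control mean, with 1 symbol per library. Sgca, at 1635 reads per kilobase on average in the control group, stands highest in both groups, and Dmd and Utrn overlap in the knockout group.

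Ratios between relatives within a library hardly depend on how the library was scaled. In all 3 pairs were compared, and p-values were adjusted over the 3, of which 2 are described. Sgce amounted to 5.23%, 4.15%, 8.17% and 5.01% of the normalised reads of Sgca in the control libraries and to 18.4%, 16.9%, 11.7% and 17.6% in the knockout libraries. The groups did not overlap, and the highest control library was replicate 3. The log2 ratio rose from -4.19 ± 0.41 to -2.65 ± 0.30 (mean ± SD, n = 4 each), a difference of 1.54, higher in 4 of 4 knockout libraries than in any control library. The exact two-sided permutation test over 70 assignments gave p = 0.0286, the smallest it can give, and 0.0857 after adjustment over the 3 pairs, which does not pass 0.05. Sgca and Sgce each separated the groups, in opposite directions, so their ratio had to separate them and this test adds nothing to those results.

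Utrn amounted to 36.9%, 25.8%, 54.5% and 51.1% of the normalised reads of Dmd in the control libraries and to 51.8%, 79.8%, 59.0% and 70.1% in the knockout libraries. Control replicate 3 lay above knockout replicate 1, so the groups overlapped. The difference in log2 ratio was 0.67 (exact permutation p = 0.0571, adjusted 0.0857). It was 0.82 without control replicate 3 (exact permutation p adjusted over the 3 pairs 0.0429) and 0.46 without control replicate 2 (0.129).

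**Figure D3:**
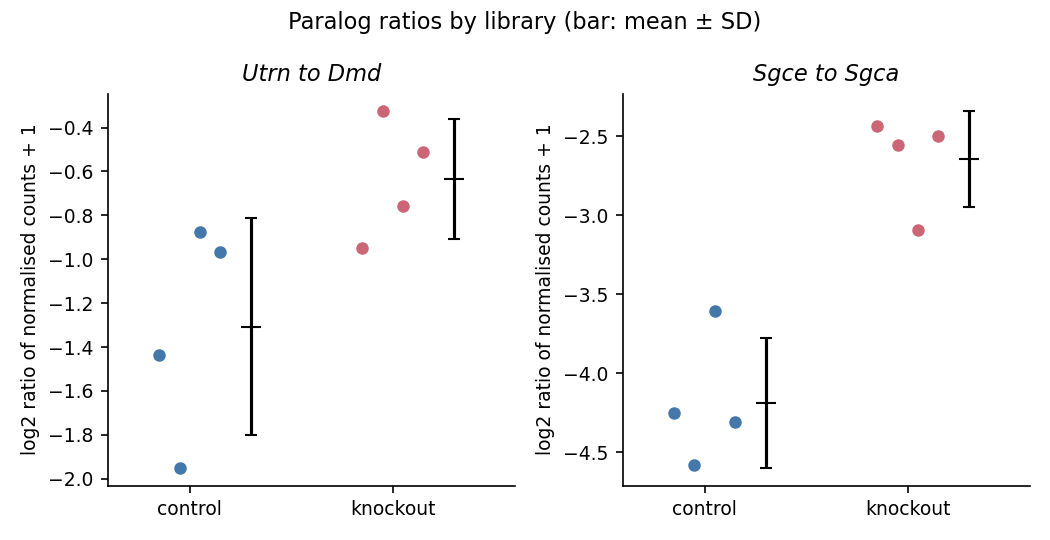
Log2 ratio of normalised read counts, each plus 1, for 2 pairs of related genes in each library, with the mean ± SD of each group. The Sgce to Sgca ratio is higher in all 4 knockout libraries than in any control library, while the groups overlap for Utrn to Dmd.

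Gene lists of cell types went in different directions. Of all tested genes 11.6% were called higher and 11.6% lower. Of the 18 skeletal muscle genes 8 were called lower, with a median log2 difference of -0.69, a range from -1.07 to -0.03 and no gene at 0 in every library. Their summed level was 2568980 to 2780057 in the control libraries and 1263554 to 1756538 in the knockout libraries. Tnnc2, the fast troponin C gene on this list, was at 11.9 ± 3.37 normalised reads in the control group and at 12.2 ± 5.55 in the knockout group, the lowest level per kilobase on the list and the -0.03 end of that range. Its row is doubtful as a measure of muscle, and values with the list held level are also given without it. Of 10 fibroblast genes 8 were called higher (summed level 69743 to 197173 against 219179 to 376008), and of 8 macrophage genes 8 were (2817 to 6668 against 9880 to 14084), again with no gene at 0 throughout. Of 9 smooth muscle and pericyte genes 1 was called higher and 2 lower (64373 to 78968 against 43511 to 53567, mostly Des, which skeletal muscle also expresses), and 7 endothelial genes had log2 differences from -0.35 to 0.31. The part of these cell types in the differences of the members was not tested.

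Set against the skeletal muscle list of the same library, the members differed from each other in the size of their group difference. The list averaged 15.998 ± 0.088 on the log2 scale in control libraries and 15.33 ± 0.201 in knockout libraries (mean ± SD, n = 4 each). Relative to that mean Sgca was at -4.53 ± 0.13 in the control group and at -4.70 ± 0.09 in the knockout group, a difference of -0.17 with overlapping groups. The difference relative to muscle was 0.24 for Dag1, 0.30 for Sgcb, 0.41 for Dmd, 0.45 for Sspn and 0.72 for Sgcd, and of these 5 genes only Sgcb had groups that did not overlap. It was 1.08 for Utrn and 1.37 for Sgce, without overlap. The median of all tested genes moved by 0.67 on the same scale, so Utrn, Sgcd and Sgce lay above that median and the other 5 members below it. In a limma fit on this scale, added after seeing the data, the adjusted p was 0.0823 for Dag1, 0.0424 for Sgcb, 0.0301 for Dmd, 0.0247 for Sspn, 0.00209 for Utrn, 0.000927 for Sgce, 0.0789 for Sgcd and 0.179 for Sgca, so that Dag1, Sgcd and Sgca did not pass. That fit called 10080 of the 14949 tested genes, 10058 of them higher, so passing it does not set a member apart. With Tnnc2 left out of the list Dag1 was at 0.27 and passed (limma adjusted p = 0.0339), and Sgcd (0.0601) and Sgca (0.255) again did not.

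**Figure D4:**
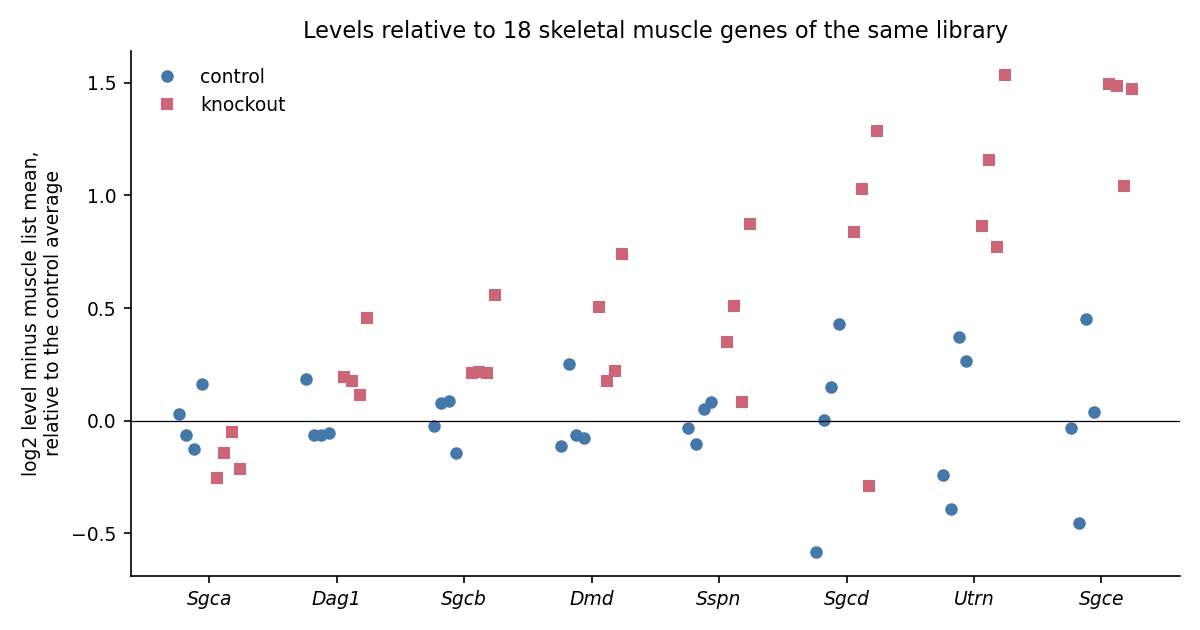
Log2 level of each gene minus the mean of 18 skeletal muscle genes of the same library, set to 0 at the control average (vertical axis), with circles for control and squares for knockout libraries. Sgca stays near 0 in both groups, and Utrn and Sgce lie above the control libraries in all 4 knockout libraries.

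Genes that work beside the complex inside the fibre or in its membrane were taken from a list of 21, of which 19 were in the table and 16 were tested. Of these 16, 10 were called lower and 1 higher, and the median log2 difference was -0.61 beside 0.00 for all tested genes. That is 68.75% of the 16, beside 23.2% of all tested genes. With the skeletal muscle list held level these falls were not called: 4 partners were called higher and 0 lower by limma. The partner median was then 0.06, beside 0.67 for all tested genes, of which 10058 were called higher. Under quantile normalisation 6 were called lower and 1 higher. Capn3, a muscle protease, fell by 0.72 ± 0.10 (log2 scale, SE, limma adjusted p = 0.00397), from 2194 ± 137 to 1341 ± 154 normalised reads. Plec, the plectin gene, fell by 0.56 and Cavin4, a caveola gene of muscle, by 0.73 (limma adjusted p = 0.00610 and 0.00674).

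The partner called higher was Sntb2. It encodes a syntrophin of many tissues, an adaptor that binds the tail of dystrophin and utrophin, and had 168, 199, 282 and 274 normalised reads in the control libraries and 484, 460.1, 359 and 486 in the knockout libraries. It rose by 0.97 ± 0.18 (SE, limma adjusted p = 0.00790). Its groups did not overlap.

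**Figure D5:**
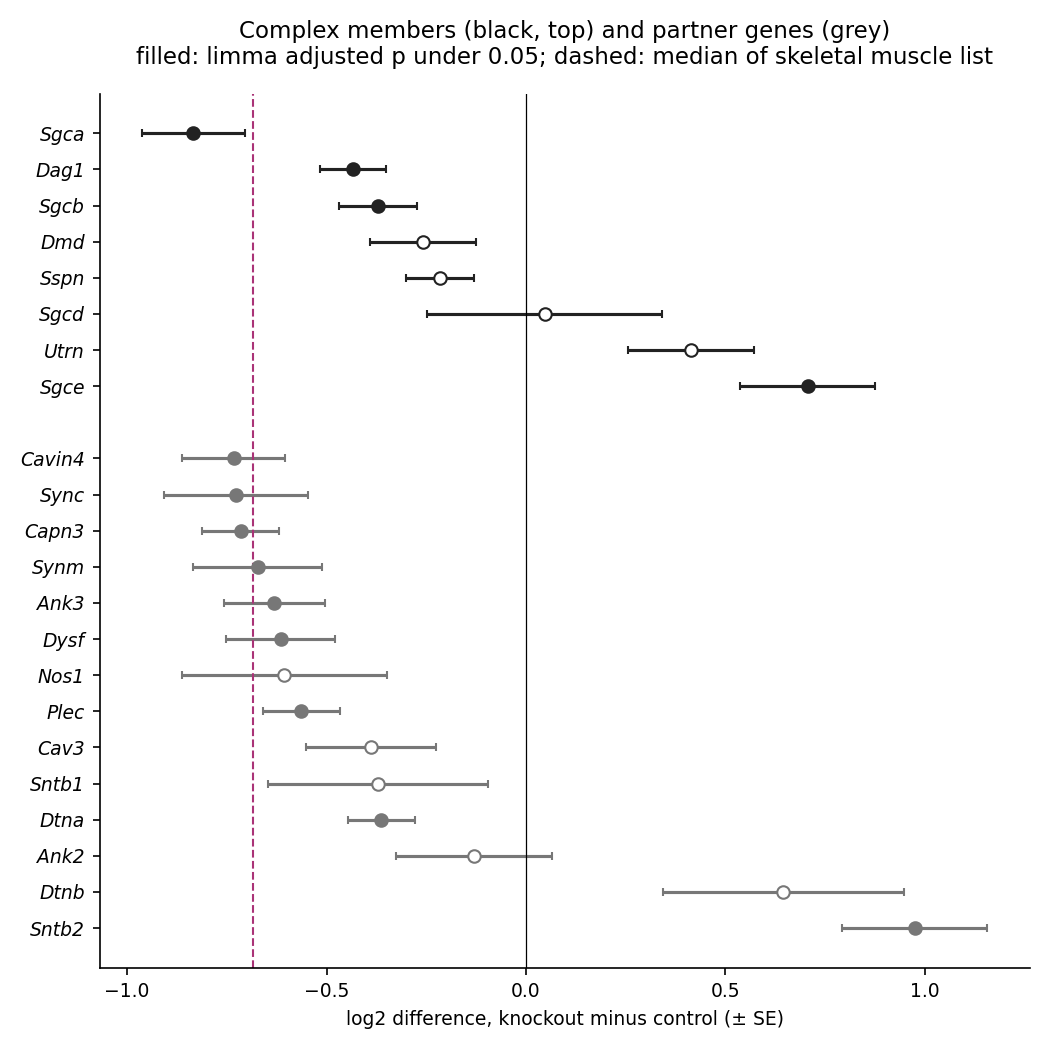
Log2 difference, knockout minus control (horizontal axis), with its standard error for the 8 members in black and 14 of the 16 tested partner genes in grey, filled where the limma adjusted p was under 0.05. Most partners lie near the dashed median of the skeletal muscle list (-0.69). Sntb2 and Sgce, both filled, and Dtnb, Utrn and Sgcd, all open, lie to the right of 0. Dag1, Sgcb, Dmd and Sspn, left of 0 here, lie to the right of it if that list is held level.

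Dystroglycan binds laminin only after sugar chains are built on it. Of 19 genes of that synthesis, all tested, 3 were called lower and 3 higher, with a median log2 difference of -0.09. That is 31.6% of the list, beside 23.2% of all tested genes, so the genes named next are single genes and not a result on the pathway. B3galnt2, an N-acetylgalactosaminyltransferase of the core glycan, fell by 0.55 (limma adjusted p = 0.0102) and Pomgnt1 by 0.29 (0.0390). Srd5a3 rose by 0.91, Dpm2 by 0.39 and Gmppb by 0.58 on the log2 scale (limma adjusted p = 0.0232, 0.0334 and 0.0491). These last 3 genes serve the general supply of dolichol and mannose donors. The number of called genes in this list fell to 1 without control replicate 4 or knockout replicate 4, and to 2 on leaving out replicate 1 or 2 of either group. It was also 1 under quantile normalisation and under the replicate block.

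Outside the cell, 12 of 14 listed ligands of dystroglycan and the sarcoglycans were tested, of which 4 were called higher and 1 lower (median log2 difference 0.37). That is 41.7% of the tested genes of the list, beside 23.2% of all tested genes. Lama2, the laminin chain of the muscle basement membrane, had 704, 419.9, 638 and 639 normalised reads in the control libraries and 607, 706, 463 and 605 in the knockout libraries. Its groups overlapped and its mean was 600.3 ± 124 and 595 ± 99.7 (limma adjusted p = 0.996). Slit2, a guidance protein that binds dystroglycan, rose by 2.47 ± 0.67 (SE, limma adjusted p = 0.0262), from 69.4 ± 63.3 to 284 ± 127 normalised reads, with 1 control library at 10.1. Agrn, the agrin gene of the nerve-muscle junction, rose by 0.48 (limma adjusted p = 0.0153), Lama3 by 1.14 (0.0176) and Lamb1 by 0.84 (0.0490). The groups of Lamb1 overlapped (exact permutation p = 0.0857), with control replicate 3 at 610 and knockout replicates 1 and 3 at 501 and 492. Egflam, the pikachurin gene, fell by 0.51 (limma adjusted p = 0.0236). The number called in this list was 2 without control replicate 4 or knockout replicate 4 and 3 without control replicate 2 or knockout replicate 2. Under the replicate block it was 2.

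Integrin alpha-7 with integrin beta-1 is the other main laminin receptor of muscle. Of the 6 genes on that list 0 were called by limma, 0 by edgeR and 0 by DESeq2, and 1, Itga7, had an unadjusted limma p under 0.05. Itga7 had 2289, 2763, 2579 and 2328 normalised reads in the control libraries and 1751, 1768, 2556 and 1782 in the knockout libraries. Knockout replicate 3 lay within the control range and the other 3 knockout libraries below it (log2 difference -0.36, standard error 0.13, limma adjusted p = 0.0746). Without knockout replicate 3, 1 gene of the list was called higher and 1 lower. Under quantile normalisation 1 was called higher, as 1 was under the scaling without muscle and top genes.

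The genes whose pattern over the 8 libraries was closest to a member were found by the root mean square difference of log2 values, each gene centred on its own mean, among 11646 genes with a mean of at least 50. For Sgca these were Trim54 (0.05), Dusp27 (0.06) and Myo18b (0.07), where the median gene was at 0.48. For Dmd they were Gm12251 (0.08), Cited2 (0.08) and Fbxo7 (0.09), where the median gene was at 0.30. Rbms1 (0.08), Tlr4 (0.09) and Map3k2 (0.09) were the closest to Utrn, and Prkci (0.08), Snhg17 (0.09) and Afap1 (0.10) the closest to Sgce, against medians of 0.40 and 0.49. The 3 genes nearest to Sgca had log2 differences of -0.80 to -0.79, and those nearest to Sgce of 0.62 to 0.78. The group difference is part of the pattern by which these genes were chosen, so this closeness was fixed by the choice.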

How the data were processed

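Poly-A RNA libraries of 8 knee joints were grouped by their titles into 4 control and 4 knockout libraries. Per the submitters' processing notes, reads were aligned with HISAT2 to mm10 and counted with featureCounts, and per the series' design text the authors normalised and filtered with DESeq2. Versions, annotation, strand setting and filter values are not given in the sources used here. The deposited values are a signal, the read count of a gene divided by a size factor. Within 0.001, 100% of each column was made of whole multiples of its smallest value, so reads were recovered. Control replicate 2 (1.01) and knockout replicate 1 (0.997) had a smallest value so close to 1 that the multiples carry little information there. Pairs of libraries within a group differed by more than counting error (chi-square per degree of freedom 23.5 to 59.7).

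Genes that reached 10 in 4 or more libraries were tested with limma 3.58.1 (R 4.3.3, trended eBayes) on log2(value + 1), with 1 term for the group. A fold change is on that scale, and genes were called at a Benjamini-Hochberg adjusted p under 0.05 across all genes tested. edgeR 4.0.16 and DESeq2 1.42.0 on the recovered reads were alternatives. Paralog ratios used exact two-sided permutation tests. Symbols were matched to GENCODE M21 (99.2% of rows). Rxylt1 is named Tmem5 in the table. Sequences are from RefSeq, whose table matched 7 of the 8 members, all but Sgce.

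The members and lists were chosen with earlier results of these data known. All members were named, and from each partner list at most 6 called genes by smallest p, with Lama2, Itga7 and Loxl2 in any case. Some genes that this rule names, and 1 paralog pair, are not reported here. Tnnc2, Des, Prg4, Acan and Col2a1 were named after their values were seen. Besides the lists in the report, regenerating muscle (1 of 6 tested genes called higher, 2 lower), cartilage (1 of 9 higher), bone (3 of 6 higher), and Schwann cell and nerve (1 of 7 higher) genes were examined. The median log2 difference was -0.17 for 5 adipocyte, -1.95 for 7 erythroid and -0.64 for 8 neutrophil genes.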

Additional observations from a re-analysis of the deposited data

Results flagged for a closer look

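Within groups of 4 libraries, a single library stood apart from the other 3 in 2 of the member values examined, by Dixon's test at the 95% level, which flags about 1 in 20 groups by chance. Dmd in control replicate 2 was at 1856 normalised reads, while the other 3 control libraries lay between 1268 and 1344. Sspn in control replicate 1 was at 1389 normalised reads, while the other 3 control libraries lay between 1502 and 1509. No explanation was tested for either value.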

How the results depend on the processing

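The direction and call of each of the 8 members were kept with pseudocounts of 0.1 and 10, without the filter, with TMM scaling, and with edgeR (3324 genes called) and DESeq2 (4125) on recovered reads. Quantile normalisation gave -0.19 for Dag1, -0.22 for Sgcb and -0.18, a changed sign, for Sgcd. Scaling without muscle, erythroid, neutrophil and top genes gave -0.22 for Sgcb and 0.56 for Utrn, which was then called, and 3492 genes called, 2708 of them higher (77.5%, beside 50.04% in the reported fit) around a median of 0.15. The replicate numbers gave no sign of pairing the samples. With each gene's group mean subtracted from its log2 values, same-numbered libraries had correlations of 0.21, -0.12, -0.23 and -0.06. Those of differently numbered libraries ran from -0.16 to 0.27. With the replicate block the count of genes called was 2018 instead of 3461 and that of partner genes 13 instead of 22. Sgcb (-0.37, limma adjusted p = 0.0580) and Sgce (0.71, 0.0522) were then not called. Both ratio tests had an adjusted p of 0.188 (exact sign flips). Sign flips of 4 pairs cannot give a p under 0.125, so this test could not pass 0.05.

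Leaving out 1 library gave 1740 to 3832 genes called, the fewest without knockout replicate 4, then 1909 without control replicate 2 and 2209 without control replicate 4, and 13 to 27 partner genes. The log2 differences ranged from -0.47 to -0.39 for Dag1, -0.31 to -0.13 for Dmd, -0.94 to -0.73 for Sgca, -0.43 to -0.30 for Sgcb, -0.17 to 0.31 for Sgcd, 0.60 to 0.85 for Sgce, -0.26 to -0.16 for Sspn and 0.31 to 0.53 for Utrn. Sgcd was at -0.17 without control replicate 1 and at -0.01, -0.06 and -0.05 without knockout replicates 1, 2 and 4. The ratio differences ranged from 0.46 to 0.82 for Utrn to Dmd and 1.41 to 1.73 for Sgce to Sgca. Without control replicate 3 these 2 passed 0.05 (both adjusted p = 0.0429, exact permutation).

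With the skeletal muscle list held level, chosen after seeing the data, 10080 genes and 36 partner genes were called, around a median of 0.67. Dmd was at 0.41, Dag1 at 0.24, Sgcb at 0.30 and Sspn at 0.45, all with a changed sign, Utrn at 1.08 and Sgca at -0.17, which was not called. With Tnnc2 left out of that list the counts were 10888 and 38, the median 0.71, and the members at 0.45 (Dmd), 0.27 (Dag1), 0.34 (Sgcb), 0.49 (Sspn), 1.12 (Utrn) and -0.13 (Sgca). The cause of these changes was not tested.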
